A study of Mus musculus with 4 samples.

Results

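Imprinted genes are expressed mainly from the allele inherited from 1 parent, and many of them act on fetal growth. This account follows 10 of them across mouse embryonic fibroblasts (MEFs) of 2 genotypes with and without interferon alpha: Dlk1, H19, Igf2, Igf2r, Grb10, Peg3, Mest, Plagl1, Ndn and Sgce. All probes that the platform's gene table assigns to these symbols were taken. They were 19 probes of 9 genes, among 29976 probes with 1 gene symbol, naming 17708 genes. H19 had no probe under its name and is not analysed here.

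MEFs are cultured connective-tissue cells taken from mouse embryos. The cells were labelled as a MEF cell line of the C57BL/6 strain, either wild type (WT) or lacking Stat3 (STAT3KO), which encodes a cytokine-activated transcription factor. Both were sampled without treatment and 2 h after IFNa, a type I interferon, was given at 1000 U per ml. Total RNA of each of the 4 combinations was hybridised to 1 Illumina bead array, without replicates. A genotype is therefore 1 line measured on 2 arrays, and a difference between genotypes and a difference between lines cannot be told apart. The labels used here do not say how the knockout was made or whether the lines were sister lines.

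Growth is driven by some imprinted genes and restrained by others. IGF2, a growth factor expressed from the paternal allele, signals through the IGF1 and insulin receptors, while IGF2R binds IGF2 and carries it to lysosomes, and GRB10 is an adaptor that dampens insulin and IGF receptor signalling. DLK1 is an EGF-repeat transmembrane protein related to Notch ligands that holds back the differentiation of fat cell precursors. PLAGL1 is a zinc finger transcription factor that regulates other imprinted genes, PEG3 is another zinc finger protein, and MEST resembles hydrolases. NDN is a growth suppressor of the MAGE family, SGCE is a sarcoglycan of the cell membrane, and H19 is a non-coding RNA made from the locus beside Igf2. The arrays measure total transcript and do not distinguish the parental alleles.

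Values are normalized log2 intensities, in which a step of 1 is a doubling. Detection means a detection p under 0.01. The arrays detected between 16076 and 17524 of 46632 probes each. Both Stat3 probes were low in the arrays labelled STAT3KO, with mean differences of -4.52 and -3.96 (log2, STAT3KO minus WT), although both were still detected there. The fibroblast label was checked on 14 markers. Of 13 tested, 9 were lower in STAT3KO and none higher, among them Thy1 (-9.57, not detected in STAT3KO), Col1a2 (-6.56), Dcn (-5.04) and Twist2 (-4.14). Vim (-0.02), S100a4 (-0.30), Twist1 (-0.19) and Fap (-0.63) did not pass the test. The shares over all 10515 tested genes were 20.0% lower and 23.1% higher. The list had a summed linear intensity of 99400 and 91100 in WT against 51500 and 57500 in STAT3KO. Of the 7 macrophage, 6 endothelial and 7 epithelial markers listed, 1, 3 and 3 were detected on any array, and Ptprc, Pecam1 and Epcam on none. Of 7 skeletal muscle, 6 adipocyte, 6 neural, 6 trophoblast and 6 germ cell or pluripotency markers, 2, 2, 3, 3 and 1 were detected. Cd68 and Csf1r of the macrophage list and Prl3d1 of the trophoblast list had no probe under their names and were not measured. Some of these also differed between the lines. Nanog, a pluripotency factor gene, was higher in STAT3KO by 2.18 and Emcn, an endothelial sialomucin gene, by 1.10, while Pparg (-1.40), Eomes (-1.14), Krt19 (-0.72) and Acta1 (-0.54) were lower (log2, limma). A second Emcn probe, at -0.45, did not pass, nor did the other tested markers of these 8 cell types. These marker levels moved with the genotype differences given here, and their part in them was not tested.

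The promoters of the members with the largest difference and of Peg3 are shown first, because the lines differ in a transcription factor that binds DNA. Each is the 250 bases before an annotated start in RefSeq (build GRCm38.p6), 5′ to 3′ on the strand of the gene. Capitals mark the only matches to the searched letters. Dlk1 has 1 start in that table. Igf2 has 4, of which the one farthest downstream is printed, and the arrays do not tell its starts apart.
Dlk1, chr12:109452573-109452822, plus strand: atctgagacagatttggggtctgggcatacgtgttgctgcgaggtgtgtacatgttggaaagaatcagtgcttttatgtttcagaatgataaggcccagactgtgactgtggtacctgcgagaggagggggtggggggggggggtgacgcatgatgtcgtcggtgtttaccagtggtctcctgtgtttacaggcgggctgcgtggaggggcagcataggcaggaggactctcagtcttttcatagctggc
Igf2, chr7:142657497-142657746, minus strand: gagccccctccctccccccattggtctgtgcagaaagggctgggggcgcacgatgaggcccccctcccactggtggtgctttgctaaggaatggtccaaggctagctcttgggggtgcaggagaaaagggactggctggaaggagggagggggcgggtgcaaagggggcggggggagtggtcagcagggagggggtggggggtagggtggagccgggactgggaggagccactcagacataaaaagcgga
Peg3, chr7:6730420-6730669, minus strand: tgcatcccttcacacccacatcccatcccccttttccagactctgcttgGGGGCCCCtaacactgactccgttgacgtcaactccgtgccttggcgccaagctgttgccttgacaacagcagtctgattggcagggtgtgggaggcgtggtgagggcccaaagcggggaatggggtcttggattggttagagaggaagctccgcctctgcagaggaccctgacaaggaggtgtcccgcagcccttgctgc

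The STAT family motif TTCNNNGAA and the PLAGL1 motif GGGGCCCC were searched in 14 promoter windows of 8 members. Each motif reads the same on both strands, and no matches overlapped. TTCNNNGAA was in 0 of the 14 windows, against 7.02% of 32851 promoters of the same length. GGGGCCCC was in 1 of the 14, the Peg3 window, where it ended 193 bases before the start, against 0.889% of all promoters. These letters being in a window, or not, is a description of this window only.

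Of the 19 probes, 7 were detected on at least 1 array and entered the test, 36.8% against 49.3% of all named probes. They stood for 6 genes: Dlk1 with 2 probes, and Igf2, Igf2r, Grb10, Peg3 and Plagl1 with 1 each. A probe that was bright in 1 genotype alone also passes this filter, so counts over the 7 are not counts over all members. The other 12 probes, including all probes of Mest, Ndn and Sgce, were detected on no array. Their log2 intensities lay between 4.28 and 5.06, and their differences between 2 arrays stayed between -0.47 and 0.41. They have no fold change.

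**Figure D1:**
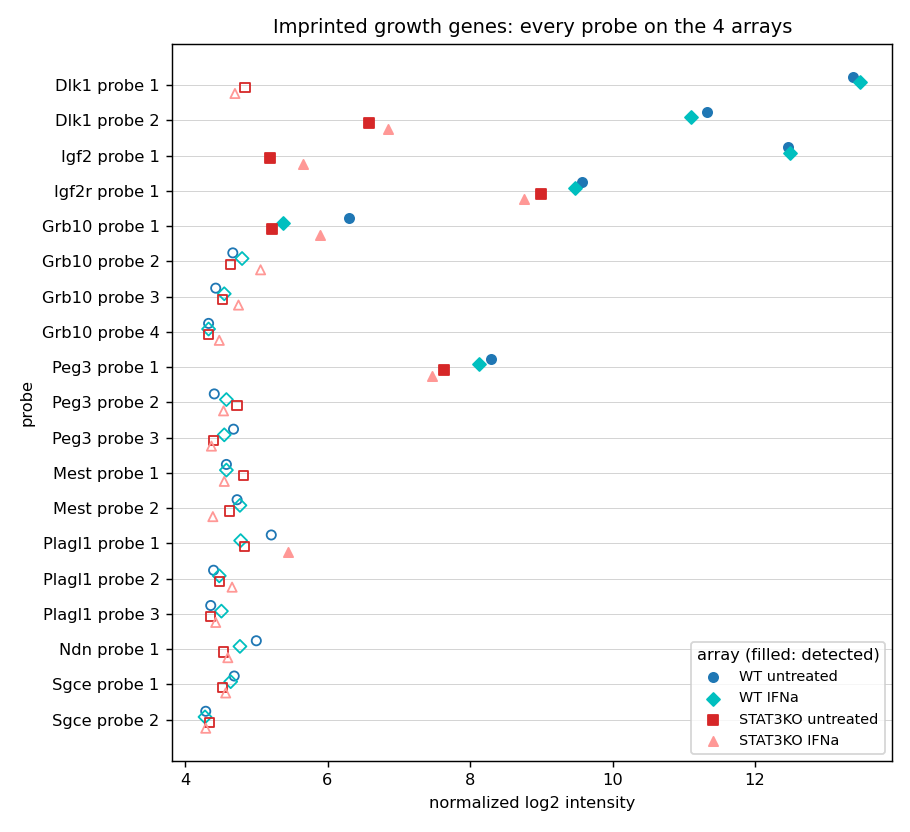
Normalized log2 intensity (x axis) of each of the 19 probes (y axis) on the 4 arrays, filled where detected and open where not. Both Dlk1 probes and the Igf2 probe lie above 11 in WT and below 7 in STAT3KO, and 12 probes are open on every array.

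The comparison of the lines answers how these genes differ between STAT3KO and WT MEFs. Dlk1 and Igf2 were high in WT and far lower in STAT3KO, where Igf2 and 1 of 2 Dlk1 probes were at or near background. Igf2r and Peg3 were lower in STAT3KO by 1.57-fold and 1.58-fold, and Grb10 and Plagl1 did not pass the test. In total 5 of 7 member probes, of 4 genes, were lower and 0 higher at an adjusted p under 0.05 (limma, genotype plus treatment, Benjamini-Hochberg over 19656 probes). Over all tested probes the share called lower was 17.0% and the share called higher 18.8%. The median difference over the 7 member probes was -0.66, against 0.0031 over all tested probes. The members were chosen with earlier results of these data known, so these counts and medians only describe them. Dlk1 gave 2 of the 7 probes, 1 of them detected in WT only. In bulk RNA, fewer cells of a type and less RNA per cell cannot be told apart.

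The test has limits that follow from single arrays. The additive fit leaves 1 residual degree of freedom, which is the difference of the IFNa responses between the lines. The estimated prior degrees of freedom were infinite, so each probe's error is the spread typical of probes of its mean intensity over the 4 arrays. For the brighter Dlk1 probe (mean 9.10) and Igf2 (8.95) that mean was the level of neither line. Their SE of 0.16 is therefore not that of dim probes, which was 0.40 for Grb10 and 0.43 for Plagl1. The p-values hold no spread between replicate cultures, and the very small ones are not given as a measure of certainty. For Dlk1 and Igf2 the highest adjusted p over all settings tried is given instead.

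The brighter Dlk1 probe had log2 intensities of 13.38 without and 13.47 with IFNa in WT, and of 4.84 without and 4.70 with it in STAT3KO. Both WT arrays stood far above both STAT3KO arrays, where the probe was not detected (detection p of 0.0961 and 0.224). On the linear scale of the authors' normalized values, whose median was 75 on each array, it read 7461.7 and 8039.7 in WT against 77.1 and 74.0 in STAT3KO. Because the dim side is background, the fold is a lower bound, computed against the lowest detected value of the dim array. In the reported normalization Dlk1 was at least 296-fold lower in STAT3KO without IFNa and at least 270-fold lower with it. These bounds depend on the background offset and the normalization, and the lowest of 6 normalizations, in the authors' values, were 89.1-fold and 91.3-fold. The fitted mean difference was -8.66 ± 0.16 (log2, limma SE, adjusted p at most 0.00198), which is not a bound and depends on the same choices.

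The other Dlk1 probe gave the same direction with a smaller size. It read 11.32 and 11.10 in WT, and 6.58 and 6.85 in STAT3KO, without and with IFNa. This probe was detected on all 4 arrays. Dlk1 was 26.8-fold lower in untreated STAT3KO cells by this probe and 19-fold lower after IFNa, or 13.6-fold and 10.7-fold in the authors' values, with a mean difference of -4.50 ± 0.16 (log2, limma SE, adjusted p at most 0.00248). The probes are assigned to the same transcript accession. They share the order of the groups and disagree on whether any Dlk1 signal remained in STAT3KO above background. The probe sequences were not used here, so which transcript forms each probe reads is not stated.

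Igf2, the growth factor, had 1 probe. In WT it read 12.47 untreated and 12.49 with IFNa, and in STAT3KO 5.19 and 5.65. The WT arrays lay within 0.02 of each other, and both STAT3KO arrays were close to background, with a detection p of 0.00461 without IFNa, just under the threshold. Igf2 was 155-fold lower in untreated STAT3KO cells and 115-fold lower after IFNa, with a mean difference of -7.06 ± 0.16 (log2, limma SE, adjusted p at most 0.00198). The size depends on the normalization. In the authors' values Igf2 read 3817.4 and 3896.7 in WT against 84.1 and 94.5 in STAT3KO, which is 45.4-fold and 41.2-fold lower, the smallest of 6 normalizations. With no replicate array and 1 probe, this fold has no second measurement within the genotype other than the IFNa array.

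Igf2r, the receptor that removes IGF2, was bright in both lines. It read 9.57 and 9.48 in WT and 9.0 and 8.76 in STAT3KO, without and with IFNa. The groups did not overlap, with a difference of -0.58 without IFNa and -0.72 with it, and a mean of -0.65 ± 0.15 (log2, limma SE, adjusted p = 0.000143). The call was lost when arrays were scaled to the 75th percentile (adjusted p = 0.602) and without the intensity trend (adjusted p = 0.0900), while the difference itself stayed between -0.66 and -0.56.

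Grb10, the adaptor that restrains IGF and insulin signalling, was dim and gave no steady order. Its 1 detected probe of 4 read 6.30 untreated and 5.38 with IFNa in WT, against 5.22 and 5.90 in STAT3KO. The groups overlapped, STAT3KO being 2.12-fold lower without IFNa and 1.43-fold higher with it. The mean difference of -0.28 ± 0.40 (log2, limma SE) did not pass the test (adjusted p = 0.665). The other 3 probes were not detected on any array.

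Peg3, a zinc finger protein gene expressed from the paternal allele, had 1 detected probe of 3. It read 8.30 and 8.12 in WT, and 7.64 and 7.46 in STAT3KO, without and with IFNa. The STAT3KO arrays were below the WT arrays by 0.66 in each treatment, with a mean of -0.66 ± 0.22 (log2, limma SE, adjusted p = 0.00898). The call was lost with scaling to the 75th percentile (adjusted p = 0.465) and without the intensity trend (adjusted p = 0.0842). The remaining 2 probes stayed between 4.37 and 4.73 and were not detected, so the difference rests on 1 probe.

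Plagl1, the transcription factor, was detected on 1 array only. Its brightest probe read 5.21 untreated and 4.78 with IFNa in WT, against 4.83 and 5.44 in STAT3KO, and its detection p was 0.0039 on the last of these. With IFNa it was at least 1.12-fold higher (1.04-fold in the lowest of 6 normalizations) in STAT3KO than in WT, and without IFNa neither array detected it. The mean difference of 0.14 ± 0.43 (log2, limma SE) did not pass the test (adjusted p = 0.866). The Ndn probe came closest to detection among the undetected members, at 5.0 and 4.77 there against 4.54 and 4.60 in STAT3KO, with a detection p of 0.086 in WT untreated.

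**Figure D2:**
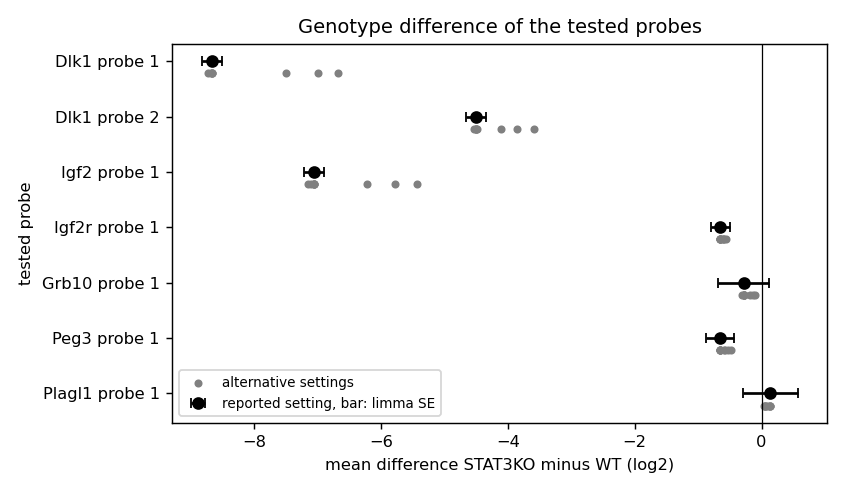
Mean difference STAT3KO minus WT in log2 (x axis) of the 7 tested probes (y axis), with black points and limma SE bars for the reported setting and grey points for the alternative settings. Both Dlk1 probes and Igf2 stay at -3.59 or lower in each setting, while Igf2r and Peg3 stay between -0.66 and -0.47.

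Counted by single pairs of arrays at 2-fold, without IFNa 4 of 6 member probes detected on either array were lower in STAT3KO (both Dlk1 probes, Igf2 and Grb10) and 0 higher. Over all 18845 such probes 9.34% were lower and 11.9% higher. With IFNa 3 of 7 were lower (Dlk1 by both probes, and Igf2) and 0 higher, where 10.4% of 18274 probes were lower and 9.17% higher. These pairs have no test. Grb10 is the member that left the count with IFNa.

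The IFNa comparison asks whether these genes respond within 2 h. None of the 7 probes passed the limma test of the mean response over both lines, in either direction, at an adjusted p under 0.05, and 0 of the 7 had an unadjusted p under 0.05 (lowest 0.145, for Igf2). Over all 19656 probes 0.809% were called higher and 0.219% lower. The mean responses of the members ran from -0.18 for Peg3 to 0.24 for Igf2 on the log2 scale, with limma SEs of 0.15 to 0.43. No member probe moved 2-fold between untreated and IFNa in either line, where 0.986% of 17639 probes were past 2-fold higher and 0.38% lower in WT, and 1.31% of 18223 higher and 0.938% lower in STAT3KO. With 1 array per group, responses smaller than these errors and also some larger ones would not be called. The Igf2 response of 0.24 was above its SE of 0.16 and did not pass. Across the settings tried it ran from 0.10 to 0.60 and passed in none (lowest adjusted p = 0.169 in limma).

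Within the lines, Dlk1 responded by 0.08 in WT on its brighter probe and by -0.22 on the other, and the second probe gave 0.27 in STAT3KO. The probes thus differ in sign in WT. Igf2 responded by 0.02 in WT and 0.45 in STAT3KO, Igf2r by -0.10 and -0.24, and Peg3 by -0.18 and -0.19. Grb10 responded by -0.92 in WT and 0.69 in STAT3KO, a difference of responses of 1.61, and Plagl1 by -0.43 and 0.61, a difference of 1.04. Both are dim probes, with mean log2 intensities of 5.70 and 5.06. Differences of responses past 2-fold towards STAT3KO were seen in 7.13% of all tested probes, and those towards WT in 3.98%. Among 8261 probes with a mean log2 intensity under 6.5 the shares were 14.2% and 8.29%, against 1.07% and 0.129% of 7780 with a mean of at least 8. A response below 0 in WT and above 0 in STAT3KO, as in Grb10, Plagl1 and the second Dlk1 probe, was found in 24.8% of all tested probes and 27.0% of the dim ones. Differences of responses could not be tested with 1 array per group.

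**Figure D3:**
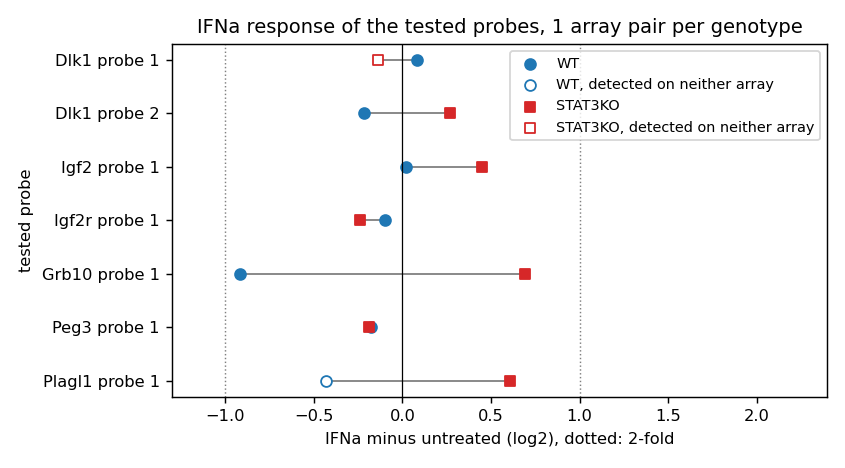
IFNa minus untreated in log2 (x axis) for the 7 tested probes (y axis), 1 point per line and 1 array pair per point, open where neither array of the pair detected the probe, with dotted lines at 2-fold. No point reaches 2-fold, and Grb10, at -0.92 in WT and 0.69 in STAT3KO, shows the widest gap.

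Imprinted genes lie in clusters, so the measured genes next to Dlk1 and Igf2 were examined, taking 5 tested genes on each side in RefSeq order. This choice was made after the values of the members were seen. Around Dlk1 on chromosome 12, 3 of 10 neighbours were lower (Eml1, Evl and Hsp90aa1) and 0 higher in STAT3KO, with differences from -0.92 to 0.78 on the log2 scale, none near the -8.66 of Dlk1. Around Igf2 on chromosome 7, 3 of 10 were higher and 1 lower, from -0.90 for Lsp1, a leukocyte actin-binding protein, to 1.66 for Tnnt3, a fast muscle troponin. Ins2, the insulin gene next to Igf2, was at -0.26 (adjusted p = 0.664 in limma). For genes named by their brightest probe the share called was 20.0% lower and 23.1% higher over 10515 genes. The non-coding RNA genes of the Dlk1 domain add no value, since Meg3 and Mirg had no probe under that name and Rian was not detected. Rtl1 and Dio3, its protein-coding genes, were not detected either. Of 10 neighbours each, 2 were lower around Igf2r, 1 lower and 2 higher around Grb10, none called around Peg3, and 4 lower and 2 higher around Plagl1.

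**Figure D4:**
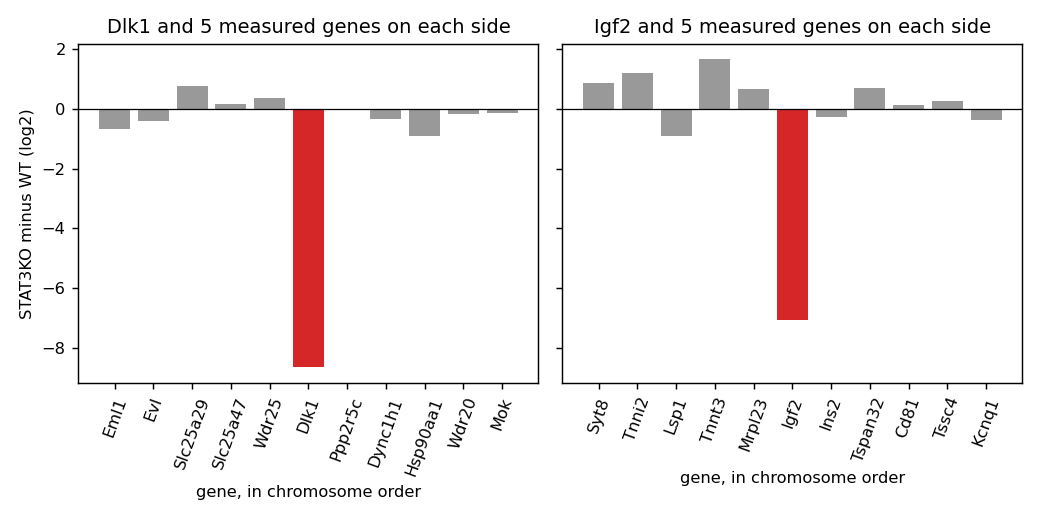
Mean difference STAT3KO minus WT in log2 (y axis) of Dlk1 and Igf2 (red bars) and of the 5 tested genes on each side of them in chromosome order (grey bars), by the brightest probe. The neighbours lie between -0.92 and 1.66, against -8.66 for Dlk1 and -7.06 for Igf2.

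In the wider Igf2 and Kcnq1 region, 4 of 11 tested genes of the list were higher and 1 lower in STAT3KO (limma). The shares over all 10515 tested genes were 23.1% higher and 20.0% lower. Phlda2, a maternally expressed gene that restrains placental growth, read 4.54 and 4.52 in WT, where it was not detected, and 7.27 and 7.5 in STAT3KO. It was at least 3.68-fold higher without IFNa and at least 4.67-fold higher with it in the reported normalization, and at least 1.77-fold and 1.99-fold higher in the authors' values. Its direction was opposite to that of Igf2. Nap1l4, a histone chaperone gene, was higher by 0.98 (log2) on its brightest probe, while a second probe was at -0.22. Around Igf2r, 2 of 4 tested genes were lower and 0 higher, namely Sod2, the mitochondrial superoxide dismutase, at -1.62 and Tcp1, a chaperonin subunit, at -0.55, with Plg and Mrpl18 at -0.22 and -0.25 not passing.

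Around the members that were not detected, neighbours were measurable. Their calls stand beside shares of 23.1% higher and 20.0% lower over all 10515 tested genes. Next to Mest, Copg2, a coatomer subunit gene, was higher in STAT3KO by 2.19 ± 0.30 and Cep41, a centrosomal protein gene, by 1.13 ± 0.21, while Cpa4, a carboxypeptidase gene, was lower by a difference of -0.99 ± 0.33 (log2, limma SE). Next to Sgce, 3 of 4 tested genes were higher. Ppp1r9a, an actin-binding scaffold of phosphatase 1, rose from 5.84 and 6.10 in WT to 9.39 and 8.71 in STAT3KO. This was 11.8-fold without IFNa and 6.08-fold with it, or 4.69-fold and 2.91-fold in the lowest of 6 normalizations. Pon3 and Pon2 encode paraoxonases. Pon3, undetected in WT, was at least 3.17-fold higher without IFNa and at least 2.76-fold with it (1.63-fold and 1.5-fold in the lowest of 6 normalizations). Pon2 rose by 0.74, while Asb4, a SOCS-box protein gene, was at least 2.45-fold lower in STAT3KO, where it was not detected (1.42-fold in the lowest). In the Ndn region 1 of 5 tested genes was higher, Snrpn, a splicing protein gene, at 0.47 on its brightest probe. A second Snrpn probe was at 0.12 without passing. Mkrn3 (0.39), Atp10a (-0.39) and Snurf (0.27) did not pass. Snurf and Snrpn share a locus, so their probes may read shared transcripts. Of the 3 tested genes beside Grb10, Cobl, an actin nucleator gene, was lower at -1.37 and Fignl1 higher at 0.38, and Ddc was at 0.54 without passing, and Usp29 beside Peg3 was at -0.34 without passing.

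Of the other members of the network regulated by Plagl1, Dcn and Gnas were detected, Meg3 had no probe and Cdkn1c, Gatm and Nnat were not detected. Dcn, the matrix proteoglycan decorin, fell from 11.20 and 10.90 in WT to 6.24 and 5.78 in STAT3KO on its brightest probe. Its other 3 probes were also lower, by differences of -4.08, -2.11 and -0.79, the last not passing the test. Dcn also belongs to the fibroblast markers. Gnas, the stimulatory G protein subunit, was at 0.21 (adjusted p = 0.456 in limma). Among 10 tested imprinted genes elsewhere, 1 was higher and 2 lower, against 23.1% higher and 20.0% lower over all 10515 tested genes. Slc38a4, an amino acid transporter of the paternal allele, rose by 1.0 ± 0.13 with a second probe at 1.34, while H13, the signal peptide peptidase gene, and Sfmbt2, a Polycomb-related gene, fell, with differences of -0.54 and -0.51, and Peg13 was at 0.38 without passing.

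The IGF system around Igf2 and Igf2r was measured by a list of 18 genes. Of 9 tested by their brightest probe, 6 were lower and 2 higher in STAT3KO (limma), with a median of -1.85 (log2). The shares over all 10515 tested genes were 20.0% lower and 23.1% higher. Of 5 tested genes of binding proteins, which hold IGFs outside the cell, 4 were lower. Igfbp3 read 11.14 and 11.51 in WT and 4.36 and 4.33 in STAT3KO, below detection, so it was at least 62.7-fold lower in untreated cells, and at least 17.4-fold in the authors' values. Igfbp5 read 12.04 and 12.07 in WT and 5.73 and 4.84 in STAT3KO, the last not detected. Igfbp7 and Igfbp6 differed by -2.01 and -1.93, and Igfbp4 was at -0.41 without passing (adjusted p = 0.0797). Irs1, an adaptor of IGF receptor signalling, differed by -1.85. The 2 that rose were Igf2bp1 and Igf2bp3, whose proteins bind Igf2 mRNA, at 1.10 and 1.16. Igf1r, the receptor through which IGF2 signals, differed by -0.43 on its brightest probe but by 1.01 on a second, both passing the test in opposite directions. Igf1, Igfbp1, Igfbp2, Akt1, Pik3ca and the insulin receptor gene Insr were not detected on their brightest probes, so their levels are not known.

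For Dlk1, the Notch pathway was the relevant list. Of 12 tested genes 3 were lower and 1 higher, against 20.0% lower and 23.1% higher over all 10515 tested genes. Notch1, a receptor, read 8.70 and 9.11 in WT and 5.62 and 5.55 in STAT3KO, a mean difference of -3.32 ± 0.27 (log2, limma SE). Hes1, a target of Notch signalling, and Rfng, which adds sugars to Notch receptors, differed by -1.13 and -0.88, and Notch4 was higher by 1.47. For Sgce, 6 genes of the sarcoglycan and dystrophin complex were tested, beside the same shares over all genes. Of these, 2 were higher (Sspn at 0.91 and Dtna at 0.76) and 2 lower (Dag1 at -1.12 and Sgcb at -0.51).

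Genes that set or keep imprints were also listed. Of 12 tested, 3 were called higher and 3 lower in the limma fit, near the 23.1% higher and 20.0% lower over all 10515 tested genes. Dnmt3l, the cofactor of the DNA methyltransferases that set imprints in germ cells, read 8.49 and 8.38 in WT and 4.32 and 4.29 in STAT3KO, below detection. It was at least 9.98-fold lower in untreated cells, and at least 3.35-fold in the authors' values. With IFNa it was at least 7.96-fold lower, and at least 3.01-fold in the lowest of 6 normalizations. Zfp445, a zinc finger protein of imprint maintenance, fell, with a difference of -1.0, while Zfp57, another such protein, and Trim28, the corepressor these proteins recruit, rose by 0.78 and 0.76. None of the lists held a gene called for the IFNa response by limma, where 1.03% of 10515 genes were called higher and 0.333% lower. DNA methylation was not measured.

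**Figure D5:**
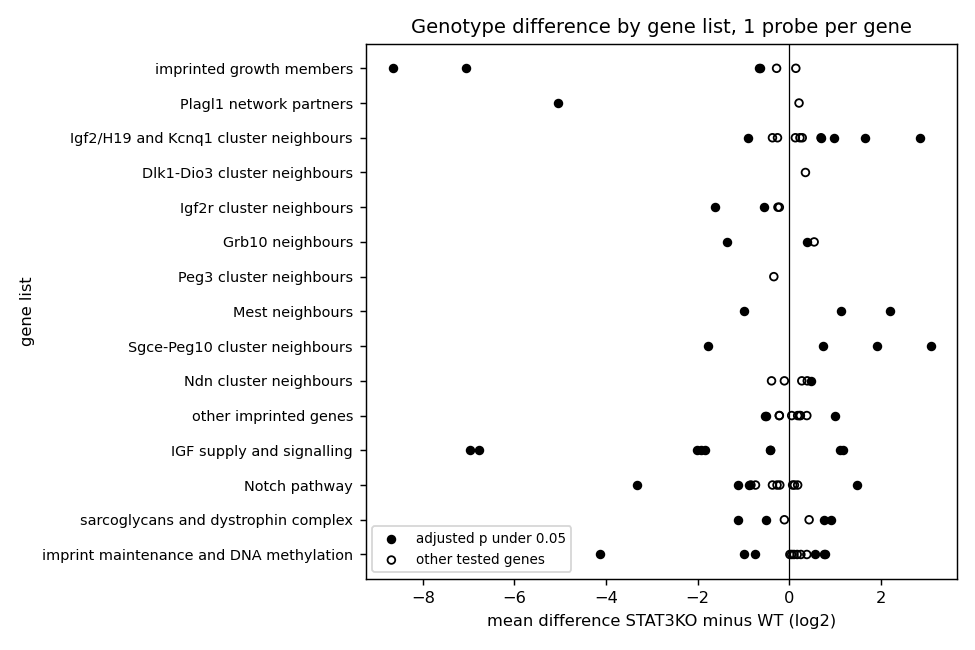
Mean difference STAT3KO minus WT in log2 (x axis) of each tested gene by its brightest probe, grouped by list (y axis), filled at an adjusted p under 0.05 (limma). Dlk1 and Igf2 lie at -8.66 and -7.06, Igfbp3 and Igfbp5 at -6.98 and -6.77 and Dcn at -5.04. The cell type markers are not plotted, and the cluster neighbours lie on both sides of 0.

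The genes whose 4 values were most like those of Dlk1 were sought over 10514 other genes, as the smallest Euclidean distance between log2 values centred on their own mean. They were Fbln2 at a distance of 0.28, Slpi at 0.69, Hoxc6 at 0.73, Thy1 at 0.93 and Thbs2 at 1.02. Fbln2 read 13.35 and 13.13 in WT and 4.44 and 4.38 in STAT3KO. All 5 were at 11.99 or above in WT on the log2 scale and at 5.26 or lower in STAT3KO. The likeness rests on 4 arrays of 2 lines.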

How the data were processed

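Total RNA of 4 samples was hybridised to Illumina bead arrays, 1 per group. BeadStudio 3.2.3 is named in the submitters' processing notes. The deposited values are linear intensities with a detection score, a fraction from 0 to 1 per the file headers, and the detection p was taken as 1 minus it. Per the file headers the WT untreated intensity column was deposited already normalized. The other 3 arrays were not. All 4 columns were processed alike here, so the reported setting mixes 1 normalized array with 3 that were not. The authors' normalized intensities served as an alternative and no source used here gives their method.

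Intensities were background-corrected by normexp with the detection p (offset 16), quantile-normalized and taken to log2 (limma 3.58.1, R 4.3.3). The fit was genotype plus treatment with an intensity trend, over 19656 probes detected on at least 1 array. On simulated data with 50 changed probes per fold, it called 22% of 1.5-fold, 42% of 2-fold and 96% of 4-fold changes. The simulated noise was independent between arrays and held no spread between cultures, so the simulation does not check the fit against such spread. Of 46632 probes, 10 had several symbols and 16646 none. RefSeq (GRCm38.p6) gave current symbols, by Entrez ID for 29921 probes, by accession for 12. A gene's brightest probe had the highest mean.

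Members and lists were chosen with earlier results of these data known. Named genes are all members, Stat3, in each list up to 4 tested genes with the largest genotype difference, and the 5 genes most like Dlk1. Other genes named (the neighbours in RefSeq order, Vim, S100a4, Twist1, Fap, Igfbp4, Irs1, Igf1r, Igf2bp1, Igf2bp3, undetected genes) were chosen after their values were seen. For folds written "at least" the dim side was taken as the lowest detected value of that array, or the probe's own value where higher, and they depend on the normalization. Alternatives were no background correction, offset 50, scaling to the 75th percentile, cyclic loess, the authors' values, detection on all 4 arrays, no filter, no intensity trend and 1 probe per gene.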

Additional observations from a re-analysis of the deposited data

Results flagged for a closer look

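In 4 tested probes the IFNa response had opposite signs in the lines, each from 1 array pair, and the difference was not tested. For Grb10 the response in STAT3KO minus that in WT was 1.61 (log2), and for Plagl1 it was 1.04. For Dlk1 it was -0.22 on the brighter probe, which was not detected in STAT3KO, and 0.49 on the other.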

How the results depend on the processing

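Under 9 alternatives the number of member probes higher in STAT3KO stayed at 0, as did those changed with IFNa. The number lower, 5 in the reported setting, was 3 under 75th percentile scaling and also 3 without the intensity trend, as Igf2r and Peg3 lost their calls. It was 4 with detection on all arrays and 4 with 1 probe per gene, settings that each left out a Dlk1 probe. No genotype difference changed sign, and Dlk1 and Igf2 passed in every setting that tested them. The brighter Dlk1 probe ranged from -8.73 to -6.68, the other from -4.54 to -3.59 and Igf2 from -7.15 to -5.44 (log2), smallest in the authors' values. Over 6 normalizations the untreated fold of the brighter Dlk1 probe was at least 89.1 to at least 387, and that of Igf2 was 45.4 to 196. The IFNa response of Dlk1, near 0 in the reported setting, turned sign under some alternatives. On the brighter probe it was 0.007 with no background correction, 0.011 with offset 50, 0.415 under 75th percentile scaling, 0.327 with cyclic loess and 0.024 in the authors' values. On the other it was -0.021, -0.004 and -0.063 with no background correction, offset 50 and the authors' values. The cause was not tested. Over all probes, calls of the genotype difference were 3700 higher and 3338 lower, 1335 and 1314 under 75th percentile scaling, and 1851 and 1681 without the trend. Calls of the IFNa response were 159 higher and 43 lower, or 78.7% higher, against 76 and 3 (96.2%) under 75th percentile scaling, 116 and 11 (91.3%) with no filter, 99 and 29 with detection on all arrays, 93 and 22 with 1 probe per gene, and 0 without the trend. No paired analysis was possible because each group is 1 array and no replicate numbers pair samples; the additive fit already compares the treatments within each line. Signal over background limits Grb10 and Plagl1, and 12 member probes give no value.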
